A study of Mus musculus with 4 samples.

Results

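The SRC family of nonreceptor tyrosine kinases and the kinases that act beside it were examined in 32Dcl3-Abl1ko cells growing with or without IL-3. The set was chosen by gene symbol as Fgr, Lyn, Fyn, Src, Yes1, Lck, Csk, Btk and Syk, and 7 of these 9 genes were found among the 23756 genes of the deposited table. Fgr and Yes1 were not analysed here. In GRCm38 the deposited records of the genes at the centre of the results are Lyn (ENSMUSG00000042228, chr4:3678115-3813122, plus strand), Fyn (ENSMUSG00000019843, chr10:39368855-39565381, plus), Csk (ENSMUSG00000032312, chr9:57626646-57645653, minus), Btk (ENSMUSG00000031264, chrX:134542336-134583140, minus) and Syk (ENSMUSG00000021457, chr13:52583173-52648792, plus). All 7 passed the filter on low counts, which kept 16535 genes for testing.

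32Dcl3 is a murine hematopoietic line that needs IL-3 to grow, and Abl1 was edited in it by CRISPR/Cas9. Both groups carry the Abl1 knockout: Abl1ko/IL3+ cells were kept with IL-3, and Abl1ko/IL3- cells were cultured without it, with 2 libraries in each group. The paper describes the Abl1ko/IL3- cells as IL-3-independent, and IL-3 was withdrawn gradually to obtain such cells. The absence of IL-3 therefore cannot be told apart from selection of cells able to grow without it. Single clones were selected when the knockout cells were made, and the labels do not tie the libraries to clones or to one guide, so a difference between groups cannot be told apart from a difference between clones. A group of unedited cells was not analysed here. The comparison asks how expression in the knockout cells differs between growth with and without the cytokine.

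Library totals ranged from 48953174 to 60382588 counts, at which 3 counts correspond to 0.0497 to 0.0613 CPM, the count scaled to a common library total. The targeted gene, Abl1, had 1322 and 2222 counts with IL-3 against 1544 and 2256 without it, and RNA-seq counts over the whole gene do not show an edit. The labels call the line a pre-B cell. Of the 6 B-lineage markers found, Rag1 and Ms4a1 had at most 4 counts in any library, and Igll1 at most 0.387 FPKM. Cd79a had 0.431 to 6.41 FPKM, Vpreb1 0.675 to 2.32 FPKM and Cd79b, a B cell receptor chain, 6.24 to 10.9 FPKM. The summed level of the 6 was 12.0 to 14.6 FPKM. Mpo, which encodes the myeloperoxidase of neutrophil precursors, had 135 to 528 FPKM. Abl1ko/IL3+ replicate 1 stood apart from the other libraries in the sum of its mast cell and basophil markers, 968 FPKM there and 147 to 296 FPKM elsewhere. Prss34, Cpa3 and Fcer1a made up most of that sum (548, 198 and 187 FPKM there). Other markers of the list went another way, such as Mcpt8, which was lowest there (18.3 FPKM against 31.4 to 60.6 FPKM). Mature neutrophil markers had sums of 597 and 177 FPKM with IL-3 against 812 and 4215 FPKM without it. Most of each sum was Ngp, whose groups overlapped (541 and 158 against 427 and 3031 FPKM), as did those of Lcn2 and Mmp9. Of the 9 tested, 6 were higher in both Abl1ko/IL3- libraries and 0 lower, where 19.4% and 17.9% of all genes tested were. In bulk RNA, fewer cells of a type and less RNA per cell cannot be told apart.

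SRC family kinases sit at the inner face of the plasma membrane and pass signals from receptors that have no kinase of their own, such as Fc receptors, integrins and cytokine receptors. They are held inactive when a tyrosine near the carboxyl end is phosphorylated and folds back onto the SH2 domain. CSK places that phosphate and the phosphatase CD45 (Ptprc) removes it. Once active, SRC family kinases phosphorylate the tyrosine motifs (ITAMs) of receptor chains, SYK docks on these motifs, and SYK and BTK then act on phospholipase C gamma and on adaptors. In myeloid cells LYN also works as a brake, through receptors with inhibitory motifs (ITIMs) that recruit the phosphatase SHP-1.

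The inhibitory tail is encoded at the end of the coding sequence, and the last 39 bases, stop codon included, are shown for Lyn, Fyn, Src and Lck, because CSK acts on them there, and for Csk itself. Capitals mark the last tyrosine codon in frame, and the stretch of Lyn holds one more at its start. The sequences come from GENCODE release M21 transcripts, in GRCm38, the build the authors used:
Lyn: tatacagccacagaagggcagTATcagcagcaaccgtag
Fyn: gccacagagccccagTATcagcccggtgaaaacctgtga
Src: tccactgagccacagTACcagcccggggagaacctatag
Lck: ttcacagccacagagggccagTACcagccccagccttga
Csk: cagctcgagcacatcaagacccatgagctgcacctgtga

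The Lyn stretch lies at chr4:3789906-3789944 on the plus strand, and that of Fyn at chr10:39563934-39563972 on the plus strand. Src is at chr2:157469923-157469961 on the plus strand, and Lck at chr4:129548798-129548836 and Csk at chr9:57627321-57627359, both on the minus strand. All 5 are coding bases of the last coding exon. The tyrosine codon is followed by 4 codons before the stop in Lyn and Lck and by 6 in Fyn and Src. The Csk stretch has 0 tyrosine codons in frame. Over the whole coding sequences no stretch of 30 bases was shared between any pair of these 5 genes.

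Among the 4 SRC family members measured, Lyn and Fyn made up nearly all of the message. Lyn, which acts both as an activator and as a brake in myeloid cells, had 20.4 and 14.6 FPKM with IL-3 and 16.2 and 24.4 FPKM without it. The groups overlapped, and Lyn lay between the top 8.7% and the top 13.3% of all genes in every library. For Abl1ko/IL3- over Abl1ko/IL3+ cells its log2 fold change was 0.20 (standard error, SE, 0.34, Benjamini-Hochberg adjusted p = 0.973 by the quasi-likelihood test of edgeR), and it was -0.046 when Abl1ko/IL3- replicate 2 was left out. An exon of Lyn overlaps the noncoding RNA gene Gm26857 on the other strand, and whether counting used strand is not given in the sources used here. Fyn, the broadly expressed relative of Src, had 9.2 and 7.11 FPKM with IL-3 and 4.53 and 8.38 FPKM without it. These groups overlapped too, with a log2 fold change of -0.36 (SE 0.40, adjusted p = 0.943 from edgeR), and it was -0.025 without Abl1ko/IL3- replicate 1.

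Src and Lck were at the lower end of the expressed range. Src, the founding member of the family, had 26 and 34 counts with IL-3 against 0 and 26 counts without it, or at most 0.112 FPKM. Lck, the kinase of the T cell receptor, had 11 and 44 counts with IL-3 against 16 and 8 counts without it, or at most 0.221 FPKM. Where a library had 0 counts, up to 3 counts are allowed by counting error alone, if counts are independent of each other. Of nonzero counts up to 20, 57.7% to 59.9% were even in each library, so independence is in doubt and the floor may be too low. For both genes the groups overlapped. The log2 fold changes were -1.17 for Src and -1.05 for Lck, with SEs of 1.67 and 1.13, which exceeded the differences. The deposited record of Lck runs on chromosome 4 from 129548344 to 129558391, whereas the GENCODE gene extends to 129573641, so the record is shorter than the annotated gene. The record of Csk, on chromosome 9, likewise ends at 57645653, where the GENCODE gene extends to 57653631.

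**Figure D1:**
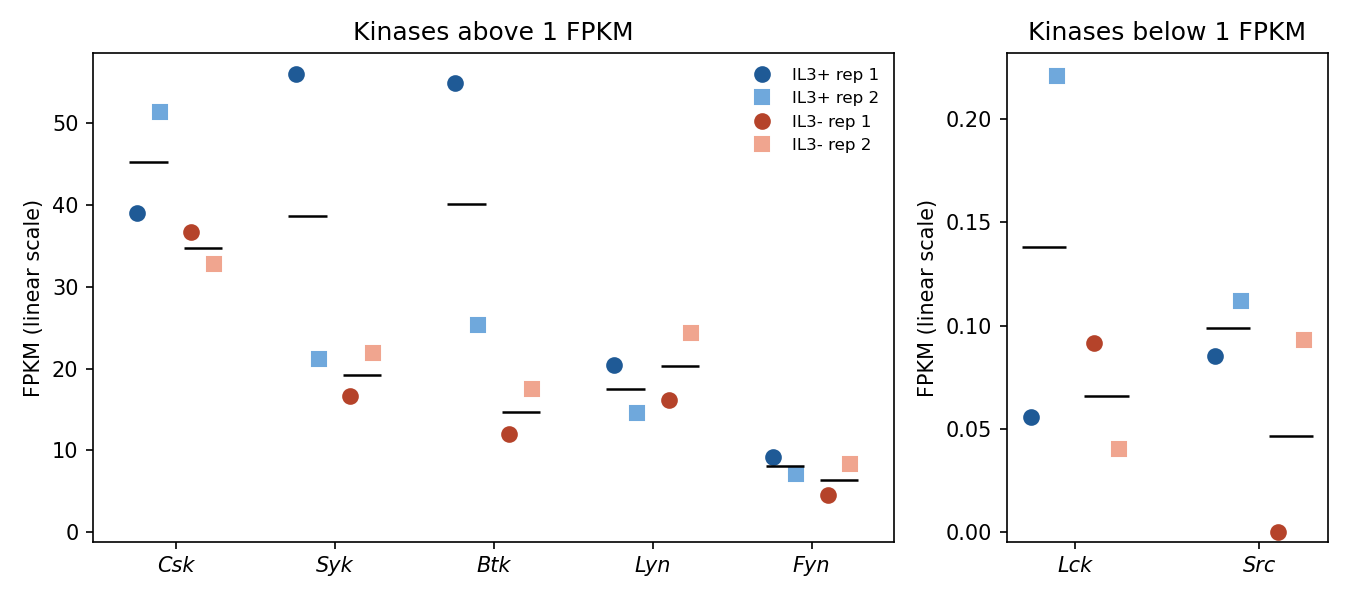
Level in FPKM (linear axes, one scale per panel) of the 7 kinases found in each of the 4 libraries; blue points are Abl1ko/IL3+, red points are Abl1ko/IL3-, circles are replicate 1, squares are replicate 2 and bars are means of 2. Btk is the gene of the left panel whose Abl1ko/IL3- points (12.0 and 17.5 FPKM) have a mean farthest below that of its Abl1ko/IL3+ points (54.9 and 25.3 FPKM), and the genes of the right panel stay at or below 0.221 FPKM.

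The balance between Lyn and Fyn did not overlap between the groups. Lyn took 68.6% and 66.2% of the summed FPKM of Lyn, Fyn, Lck and Src with IL-3, and 77.8% and 74.1% without it. Fyn took 31.0% and 32.3% with IL-3 against 21.7% and 25.5% without it. The shares of both genes did not overlap between the groups, and their means differed, with Lyn 8.6 percentage points higher without IL-3 (67.4% ± 1.68 against 76.0% ± 2.62, SD, n = 2) and a difference of -8.03 percentage points for Fyn (31.6% ± 0.946 against 23.6% ± 2.64, SD, n = 2). Lck and Src took at most 1.0% and 0.508%, so the shares of Lyn and Fyn nearly mirror each other and are 1 result. A share within a library does not depend on how libraries are scaled to each other. Put as a ratio, Lyn exceeded Fyn by 2.21 and 2.05 times with IL-3 and by 3.58 and 2.91 times without it. The summed level was 29.7 and 22.0 FPKM with IL-3 and 20.8 and 32.9 FPKM without it, which overlapped. With 2 libraries against 2 the smallest two-sided p of an exact permutation test is 0.333, so these quantities are given without a test. Of all single genes tested, 19.4% lay higher and 17.9% lower without IL-3 with no overlap in CPM. How often shares or ratios of other genes fail to overlap was not computed. The sums hold these 4 genes only.

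**Figure D2:**
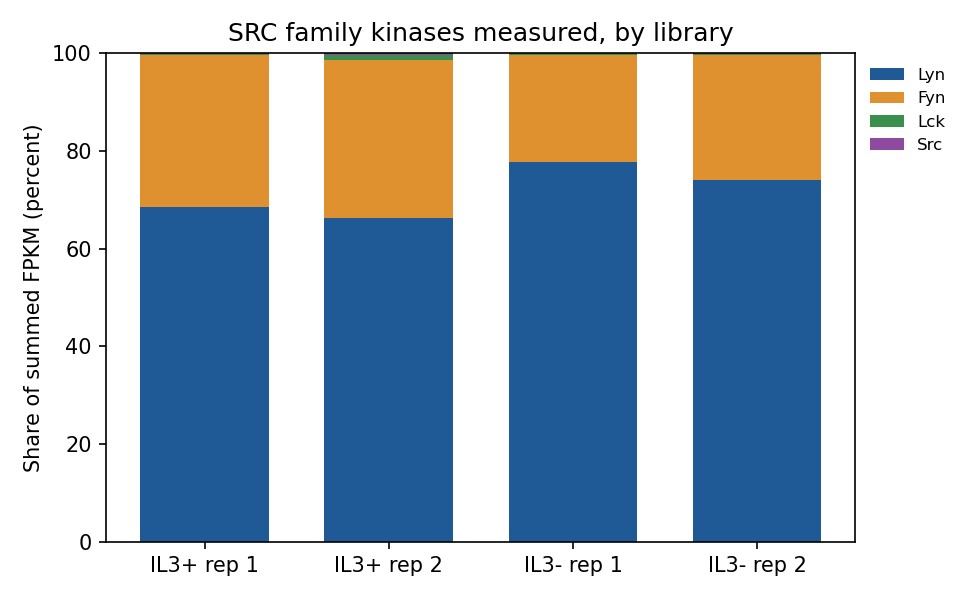
Share in percent of the summed FPKM of Lyn, Fyn, Lck and Src in each library (stacked bars that add up to 100). Lyn takes 66.2% to 68.6% in the Abl1ko/IL3+ libraries and 74.1% to 77.8% in the Abl1ko/IL3- libraries, and Fyn most of the rest.

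Csk, the kinase that restrains the family, was the most abundant of the 7 genes on average. It had 39 and 51.4 FPKM with IL-3 and 36.7 and 32.8 FPKM without it. The FPKM values of the groups did not overlap, while in CPM scaled by TMM, edgeR's correction for library composition, they did, at 151 and 240.0 CPM against 161 and 133 CPM. Its log2 fold change was -0.42 (SE 0.37, adjusted p = 0.931 from edgeR). It shrank to -0.048 without Abl1ko/IL3+ replicate 2 and was -0.70 without Abl1ko/IL3+ replicate 1. Abl1ko/IL3+ replicate 2, in which Csk was highest, also had the highest sum over the 8 erythroid markers, 6961 FPKM against 265 to 3632 FPKM elsewhere, most of it Hba-a1 (6657 FPKM there). Of these 8 markers 5 reached 1 FPKM in every library, and the part of erythroid RNA in the Csk level was not tested. Csk exceeded Lyn in all 4 libraries, by 1.91 and 3.53 times with IL-3 and by 2.26 and 1.34 times without it. Set against the summed level of Lyn, Fyn, Lck and Src, Csk stood at 1.31 and 2.34 times that sum with IL-3 and at 1.76 and 0.996 times without it, so this balance overlapped between the groups.

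Btk and Syk, the kinases downstream of the SRC family, differed most between the groups among the 5 kinases above 1 FPKM. Btk, a TEC family kinase that activates phospholipase C gamma, had 54.9 and 25.3 FPKM with IL-3 and 12.0 and 17.5 FPKM without it. Both Abl1ko/IL3- libraries lay below both Abl1ko/IL3+ libraries, in FPKM and in CPM (180.0 and 99.6 CPM against 44.1 and 59.4 CPM). The fitted level was 2.70-fold lower without IL-3, a log2 fold change of -1.43 (SE 0.43, adjusted p = 0.737 from edgeR). Its unadjusted p in the same fit was 0.0204, a level reached by 5.91% of all genes tested. Syk, which docks on phosphorylated ITAMs, had 56.0 and 21.2 FPKM with IL-3 and 16.6 and 21.9 FPKM without it. In FPKM the groups overlapped by a narrow margin, and in CPM they did not, at 545 and 247 CPM against 182 and 221 CPM. The log2 fold change of Syk was -0.97 (SE 0.48, adjusted p = 0.86 from edgeR), and without Abl1ko/IL3+ replicate 1 it was -0.28.

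Both genes were highest in Abl1ko/IL3+ replicate 1. Between the Abl1ko/IL3+ replicates Btk differed by 1.80 times and Syk by 2.21 times in CPM, whereas the Abl1ko/IL3- replicates differed by 1.35 and 1.21 times. That library also had the highest sum of macrophage markers, 140 FPKM against 24.1 to 77.0 FPKM elsewhere, and of the mast cell markers given above. Adgre1 and Cd68 made up most of the macrophage sum (59.6 and 56.7 FPKM there). Fcgr1 was lowest there (1.9 FPKM), and Csf1r was highest in Abl1ko/IL3- replicate 2 (10.2 FPKM). Of the 8 macrophage markers found, 5 reached 1 FPKM in a library, and of the 11 mast cell and basophil markers 6 did, while the defining mast cell gene Kit had at most 4 counts. The sum of neutrophil promyelocyte markers did not overlap, with 1217 and 1029 FPKM with IL-3 and 747 and 721 FPKM without it. Of the 8 tested, 2 lay lower and 0 higher without overlap in CPM, where 17.9% and 19.4% of all genes did. Mpo had 528 and 346 FPKM with IL-3 and 227 and 135 FPKM without it. Elane, Ms4a3, Csf3r, Cebpe, Ctsg and Prtn3 overlapped between the groups in FPKM. The part of these cell types in the levels of Btk and Syk was not tested. Without Abl1ko/IL3+ replicate 1, Btk was still lower without IL-3, at a log2 fold change of -0.93 (adjusted p = 0.286 from edgeR).

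Relative to Lyn, Btk stood at 2.69 and 1.74 times with IL-3 and at 0.738 and 0.716 times without it. Btk thus lay above Lyn in both Abl1ko/IL3+ libraries and below it in both Abl1ko/IL3- libraries. How often other pairs of genes change order in this way was not computed. Syk stood at 2.75 and 1.45 times Lyn with IL-3, and at 1.03 and 0.897 times without it. The Syk to Btk ratio was 1.02 and 0.835 with IL-3 against 1.39 and 1.25 without it. Each of these ratios is taken within a library. The order of the levels was Syk, Btk, Csk, Lyn and Fyn in Abl1ko/IL3+ replicate 1, and Csk, Btk, Syk, Lyn and Fyn in replicate 2. In the Abl1ko/IL3- libraries it was Csk, Syk, Lyn, Btk and Fyn in replicate 1 and Csk, Lyn, Syk, Btk and Fyn in replicate 2. Fyn was the lowest of the 5 in every library. Csk, Syk and Btk with IL-3 were at 45.2 ± 8.79, 38.6 ± 24.7 and 40.1 ± 20.9 FPKM (SD, n = 2), so these neighbours did not differ beyond their spread. Without IL-3, Csk at 34.7 ± 2.76 FPKM (SD, n = 2) lay above the other kinases in both libraries, while Lyn at 20.3 ± 5.79 and Syk at 19.3 ± 3.71 FPKM (SD, n = 2) did not differ beyond their spread.

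**Figure D3:**
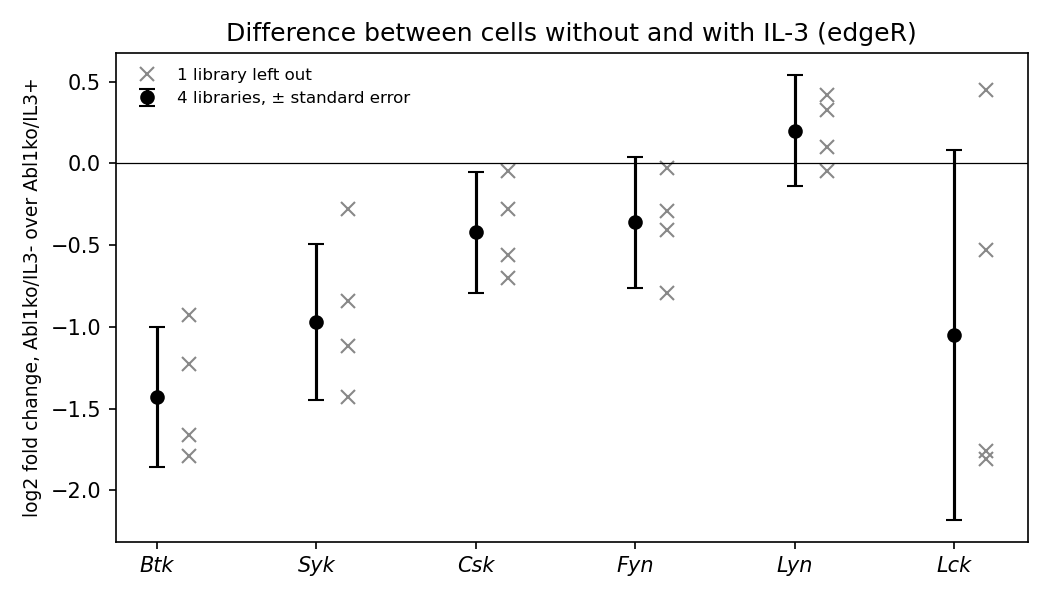
log2 fold change of 6 kinases in Abl1ko/IL3- over Abl1ko/IL3+ cells from edgeR (vertical axis); black points with bars are the fit of 4 libraries ± standard error, and grey crosses are fits with 1 library left out. Btk stays between -1.79 and -0.93, whereas Lyn and Lck have crosses on both sides of 0; Src is not drawn because 1 of its fits leaves a group at 0 counts.

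Counted together, 0 of the 7 kinases had an adjusted p under 0.05 in edgeR, where 0% of all 16535 genes did, and 1 (Btk) had an unadjusted p under 0.05, where 978 of all genes, or 5.91%, did. DESeq2 called 0 of the 7 and 271 of all genes, or 1.64%. In CPM, 2 of the 7 (Btk and Syk) lay lower in both Abl1ko/IL3- libraries without overlap, where 17.9% of all genes did, and 0 lay higher, where 19.4% did. In FPKM the 2 genes were Btk and Csk, against 16.2% of all genes. The fitted log2 fold change was below 0 for 6 of the 7, Lyn being the exception, with a median of -0.97 against -0.027 over all genes tested. The median of the 7, which include the low Src and Lck, was -0.41 without Abl1ko/IL3+ replicate 2 and -0.56 without Abl1ko/IL3- replicate 1.

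The profiles of Btk and Syk were the most alike of any pair of the 7 genes, with a root mean square difference of 0.282 in log2 CPM centred on each gene's mean over the 4 libraries, and Lyn and Fyn followed at 0.32. For Csk, the member with the highest mean level, the closest genes of all those tested were Ddx54 (0.0194), Mepce (0.0214) and Yipf3 (0.0267), by the same measure over 4 libraries. With so few libraries such closeness only describes them.

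The other nonreceptor tyrosine kinases were read from a list of 21 genes, of which 16 were found and 12 passed the filter. None had an adjusted p under 0.05 in edgeR or in DESeq2, and 1 had an unadjusted p under 0.05 in edgeR, where 5.91% of all genes did. Of the 12, 1 lay higher and 2 lower without overlap (8.33% and 16.7%, against 19.4% and 17.9% of all genes), with a median log2 fold change of -0.28. This median was 0.15 without Abl1ko/IL3+ replicate 1, -0.67 without Abl1ko/IL3+ replicate 2 and -0.53 without Abl1ko/IL3- replicate 2. Tnk2, also called ACK1, had 7.62 and 10.5 FPKM with IL-3 and 3.03 and 3.28 FPKM without it (log2 fold change -1.57, SE 0.39, adjusted p = 0.727 from edgeR). Jak3, the kinase of the common gamma chain receptors, had 21.0 and 8.09 FPKM with IL-3 and 6.84 and 8.47 FPKM without it (log2 fold change -0.90, SE 0.46, adjusted p = 0.87 from edgeR), where the FPKM values overlapped and the CPM values did not.

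Regulators of the family were found for all 21 genes of that list, and all were tested. Of these, 2 lay higher and 6 lower without overlap (9.52% and 28.6%, against 19.4% and 17.9% of all genes). In edgeR 2 had an unadjusted p under 0.05, where 5.91% of all genes did, and 0 an adjusted one, and DESeq2 called 0, where it called 1.64% of all genes. The median log2 fold change was -0.24, and -0.12 to -0.33 with 1 library left out, the smallest without Abl1ko/IL3- replicate 1. Phosphatases were among the lower ones. Ptpre, which can remove the inhibitory tail phosphate, had 2.09 and 2.77 FPKM with IL-3 and 0.947 and 0.677 FPKM without it (log2 fold change -1.61, SE 0.46, adjusted p = 0.727 from edgeR). Ptprj, the receptor phosphatase CD148, had 13.2 and 6.57 FPKM with IL-3 and 6.99 and 0.618 FPKM without it (log2 fold change -1.31, SE 1.12), so its FPKM values overlapped. Dok2, an inhibitory adaptor of myeloid cells, had 45.9 and 67.7 FPKM with IL-3 and 26.0 and 26.5 FPKM without it (log2 fold change -1.16, SE 0.40, adjusted p = 0.815 from edgeR). Ptpn1 had 13.1 and 8.87 FPKM with IL-3 and 1.6 and 9.73 FPKM without it, with a log2 fold change of -1.0, and its FPKM values overlapped while its CPM values did not.

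Adaptors and substrates were found for 25 of 29 genes, all of them tested, with 5 higher and 6 lower without overlap (20% and 24%, near the 19.4% and 17.9% of all genes). Their median log2 fold change was -0.24, but 0.17 without Abl1ko/IL3+ replicate 1 and -0.61 without Abl1ko/IL3+ replicate 2, and -0.47 without Abl1ko/IL3- replicate 2. Of these, 3 had an unadjusted p under 0.05 in edgeR, where 5.91% of all genes did, and 0 an adjusted one. DESeq2 called 2, Plcg1 and Nedd9, where it called 1.64% of all genes. Nedd9, named after its values were seen, was high in 1 library only, with 10.6 and 0.196 FPKM with IL-3 and 0.121 and 0.294 FPKM without it. Plcg1, the phospholipase C gamma that T cells use, had 7.58 and 3.58 FPKM with IL-3 and 0.83 and 1.46 FPKM without it (log2 fold change -2.27, SE 0.49, adjusted p = 0.727 from edgeR). Its relative Plcg2, the main substrate of BTK in myeloid cells and B cells and named after its values were seen, had 31.5 and 16.0 FPKM with IL-3 and 14.2 and 18.5 FPKM without it, and the groups overlapped. Gtf2i, which encodes a BTK substrate, had 17.6 and 9.89 FPKM with IL-3 and 6.1 and 5.76 FPKM without it (log2 fold change -1.19, SE 0.35, adjusted p = 0.737 from edgeR). Was, the actin regulator of blood cells, had 50.7 and 40.3 FPKM with IL-3 and 21.6 and 30.7 FPKM without it, a log2 fold change of -0.82. Ibtk, an inhibitor of BTK, had 3.07 and 3.49 FPKM with IL-3 and 6.09 and 4.78 FPKM without it (log2 fold change 0.70, SE 0.36, adjusted p = 0.87 from edgeR). Ibtk lay higher and Btk lower in both Abl1ko/IL3- libraries, as 19.4% and 17.9% of all genes did in CPM. A link between these 2 genes was not tested.

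Of the 33 receptors with ITAM or ITIM signalling listed, 32 were found and 29 tested. The groups of 20 overlapped, and 9 lay higher and 0 lower without overlap (31% and 0%, against 19.4% and 17.9% of all genes). The log2 fold change was above 0 for 20 and below 0 for 9, with a median of 0.41, and the difference from the other lists was not tested. The median was 1.46 without Abl1ko/IL3+ replicate 1 and 0.19 without Abl1ko/IL3- replicate 2. In edgeR 5 had an unadjusted p under 0.05, where 5.91% of all genes did, and 0 an adjusted one. DESeq2 called 2, Siglece and Trem2, where it called 1.64% of all genes. Siglece, an inhibitory receptor, had 0 and 12 counts with IL-3 against 159 and 199 counts without it (log2 fold change 4.94, SE 1.56, adjusted p = 0.773 from edgeR). Trem3, which signals through an ITAM adaptor, had 2.31 and 1.78 FPKM with IL-3 and 3.16 and 7.86 FPKM without it. Cd300lf, an inhibitory receptor of myeloid cells, had 11.3 and 5.99 FPKM with IL-3 and 14.8 and 24.2 FPKM without it (log2 fold change 1.18, SE 0.41, adjusted p = 0.818 from edgeR). Clec4d, a lectin receptor that signals through SYK, had 6.73 and 23.1 FPKM with IL-3 and 26.4 and 37.8 FPKM without it. These 4 are receptors of myeloid cells, and 6 of the 9 mature neutrophil markers tested were higher in the same libraries. The part of such cells in the receptor levels was not tested. The shared ITAM adaptors, named after their values were seen, overlapped between the groups, with 185 and 230.0 FPKM against 168 and 243 FPKM for Fcer1g and 255 and 148 FPKM against 139 and 296 FPKM for Tyrobp.

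**Figure D4:**
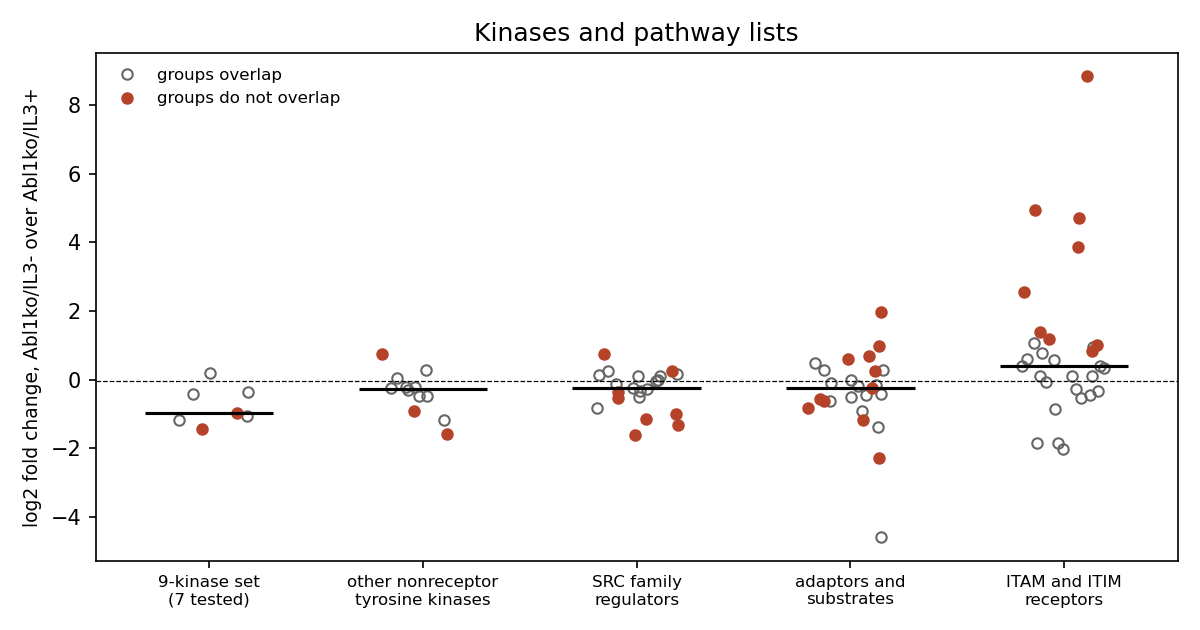
log2 fold change in Abl1ko/IL3- over Abl1ko/IL3+ cells (vertical axis, edgeR) of each gene tested, for the kinases examined and 4 lists; filled points are genes whose groups do not overlap in CPM, thick lines are list medians and the dashed line is the median of all genes tested. The receptor list has its median at 0.41 and the kinases theirs at -0.97 (-0.41 without Abl1ko/IL3+ replicate 2). The highest receptor point is Trem2, which had 0 counts in both Abl1ko/IL3+ libraries. Its mean level in the Abl1ko/IL3- libraries was 20.4-fold above a floor of 3 counts put in place of those 0 counts. For replicates 1 and 2 alone it was 6.69-fold and 34.1-fold above that floor in CPM (16 and 99 counts). These folds take the Abl1ko/IL3- counts as measured, without their counting error.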

How the data were processed

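RNA was sequenced from 2 Abl1ko/IL3+ and 2 Abl1ko/IL3- libraries, grouped and numbered by their labels. Per the paper's methods, the authors aligned reads to GRCm38 with Rsubread and counted them per gene with featureCounts; the submitters' processing notes name STAR and Cuffdiff. The deposited counts per gene are whole numbers, and which tool made them is not given in the sources used here. The authors deposited FPKM values too, made with a tool that is not given in the sources used here; counts divided by FPKM gave the same length per gene in each library, within 1.04 times for 99% of the 12946 genes with at least 20 counts in every library. A second deposited table held the same counts.

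Counts were tested with edgeR 4.0.16 in R 4.3.3 (filterByExpr, TMM, quasi-likelihood F test, two-sided, Benjamini-Hochberg adjustment over all genes, threshold 0.05), after checks on simulated data. Standard errors came from the fold change and F. The labels do not say that replicates were separate clones or days, so p-values measure only the spread between these samples; replicate numbers served as a block only as an alternative.

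Alternatives were DESeq2 1.42.0, limma 3.58.1 on log2(FPKM + 1) and log2(FPKM + 0.1), library size only, other filters and leaving out each library. Members and lists were chosen with earlier results of these data known. Some items are not reported here and were left out of the lists and sums, so shares were taken over Lyn, Fyn, Lck and Src. Besides the 7 kinases and Abl1, each list contributed at most 4 genes, those with the largest fold change among genes with no overlap and 1 FPKM in a group. Profiles used a pseudocount of 0.05 CPM. Intervals and floors cover counting error only and take counts as independent.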

Additional observations from a re-analysis of the deposited data

How the results depend on the processing

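No gene had an adjusted p under 0.05 in edgeR, and the number was 271 with DESeq2 and 0 to 15 with 1 library left out, the 15 arising without Abl1ko/IL3- replicate 1. For the 7 kinases the number was 0 in every fit. For the genes of the lists it was 4 with DESeq2 (Plcg1 and Nedd9 lower, Trem2 and Siglece higher) and 0 in the other fits. Btk, Syk, Csk, Fyn and Src kept a log2 fold change below 0 in every fit run, whereas Lyn turned to -0.046 without Abl1ko/IL3- replicate 2 and Lck to 0.45 without Abl1ko/IL3+ replicate 2 (ranges with 1 library left out -0.046 to 0.42 and -1.81 to 0.45). The adjusted p of Btk ranged from 0.183 to 1 over the alternatives. The gap between the Abl1ko/IL3+ replicates was weakly and inversely related to that between the Abl1ko/IL3- replicates (correlation -0.194 across genes). With 2 libraries in each group, this value cannot decide whether the replicate numbers pair the libraries. With the replicate block 0 genes were called, and 548 had an unadjusted p under 0.05. Btk then had a log2 fold change of -1.39 with an unadjusted p of 0.0563 in edgeR, which no longer lay under 0.05. With the pairs crossed, an alternative added once the data had been seen, 0 genes were called as well, 1136 had an unadjusted p under 0.05, and that of Btk was 0.00846 in edgeR. The log2 ratio of the summed SRC family FPKM was 0.055, and -0.31 to 0.35 with 1 library left out. The difference in the share of Lyn was 6.75 to 10.45 percentage points and that of Fyn -9.9 to -6.16 over the same fits. A sum over members alone was not run as a separate alternative, because it is the sum reported. Src and Lck did not have 10 counts in every library and got no value under that filter. Each group has 2 libraries, and Src and Lck had at most 44 counts in any of them.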

Other observations

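Several regulators and receptors differed more between replicates of one group than between the groups, and were picked after their values were seen. Ptprc, which encodes CD45, had 16.2 and 0.712 FPKM in the Abl1ko/IL3+ replicates and 1.21 and 14.9 FPKM in the Abl1ko/IL3- replicates. It was thus 18.9 times higher in replicate 1 with IL-3 and 11.3 times higher in replicate 2 without it, in CPM. Gab2, a docking adaptor for SHP-2 and PI3K, had 25.1 and 8.41 FPKM with IL-3 and 11.3 and 0.832 FPKM without it. Fcer1a, the IgE-binding chain of mast cells and basophils, had 187 and 1.03 FPKM with IL-3 and 21.0 and 22.0 FPKM without it. Nedd9, a scaffold that SRC family kinases phosphorylate, had 10.6 FPKM in Abl1ko/IL3+ replicate 1 and 0.121 to 0.294 FPKM in the other libraries, and Gp6 had 14.3 FPKM there and 0.269 to 2.94 FPKM elsewhere. Itgb3 showed a gap in the other library of that group, with 47.4 and 0.857 FPKM with IL-3 and 26.4 and 33.3 FPKM without it.

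Of the 76 listed genes with a mean of 1 FPKM or more in a group, 6 differed at least 10-fold between the Abl1ko/IL3+ replicates (7.89%, against 2.17% of 12106 genes) and 3 between the Abl1ko/IL3- replicates (3.95%, against 1.49%). None of the 5 kinases above 1 FPKM did in either group. The median difference between replicates was 1.63 times with IL-3 and 1.24 times without it over those 12106 genes, and 1.58 and 1.35 times for the 5 kinases. In log2 CPM the Abl1ko/IL3+ replicates correlated at 0.91 and the Abl1ko/IL3- replicates at 0.944. Libraries of different groups correlated at 0.896 to 0.926. The Abl1ko/IL3+ replicates were thus no more alike than some libraries of different groups, which limits every comparison given here.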
